A study of Mus musculus with 6 samples.

Results

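The natriuretic peptide and cyclic GMP (cGMP) core genes are 10 genes that were taken by name from the 23107 listed in the RNA-Seq counts of mouse aortic valves. They encode 3 ligands (Nppa, Nppb and Nppc), 3 receptors (Npr1, Npr2 and Npr3), both subunits of the common soluble guanylate cyclase (Gucy1a3 and Gucy1b3, now called Gucy1a1 and Gucy1b1), the kinase Prkg1 and the phosphodiesterase Pde5a. All 10 were listed, and all 10 passed the minimum count. Aortic valves were taken at 4 months of age from outbred mice, with 3 libraries of controls and 3 of caAcvr1:Nfatc1Cre mutants. The mutants carried a constitutively active Acvr1 transgene that Cre recombinase switches on, together with Cre knocked into the Nfatc1 locus. This driver acts in the endocardium and in the cells that descend from it, and also in cells at the junction of leaflet and wall that have another origin. The labels call the controls wild type. The study used mice that lacked either the transgene, Cre or both as controls, and it does not say which of these were sequenced, whether valves were pooled, or the sex of the mice. The p-values therefore measure the spread between these libraries, which may in part be technical.

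Natriuretic peptides are hormones that signal through cGMP. Atrial natriuretic peptide (from Nppa) and B-type natriuretic peptide (from Nppb) are secreted mainly by cardiac muscle and bind the receptor guanylate cyclase encoded by Npr1, whereas C-type natriuretic peptide (from Nppc) is a local signal of endothelium and connective tissue that binds the one encoded by Npr2. Npr3 encodes the clearance receptor, which takes up all of these peptides and has no cyclase domain. Nitric oxide feeds the same second messenger through the soluble cyclase. Prkg1 encodes a kinase that cGMP switches on, and Pde5a an enzyme that breaks cGMP down. In valve interstitial cells, signaling from C-type natriuretic peptide through Npr2 is known to protect against valve disease in mice.

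Levels are given as CPM (counts scaled to the library total, with TMM normalization), listed in the order of replicates 1, 2 and 3, and ± gives the SD over the 3 libraries of a group. Libraries held 32218345 to 55728852 fragments. The tissue carried its defining markers. All 9 markers of valve interstitial cells and fibroblasts were read, and their summed level was 15103 to 16178 CPM in the controls and 13323 to 17230 CPM in the mutants, led by Dcn (decorin) at 5282 CPM on average. The libraries also held much muscle RNA. The 14 cardiac muscle markers, led by Myh6, summed to 13380 to 42038 CPM in the controls and 25094 to 47790 CPM in the mutants, and the 10 smooth muscle markers, led by Acta2, summed to 7170 to 14356 CPM in the controls and 4017 to 7245 CPM in the mutants. The 9 endothelial markers summed to 1922 to 2850 CPM and 2158 to 2541 CPM. The 7 macrophage markers, led by C1qb, summed to 576 to 651 CPM in the controls and 722 to 785 CPM in the mutants without overlap, and their part in the results was not tested. The 6 adipocyte markers, led by Cfd, summed to 517 to 1338 CPM and 385 to 1018 CPM, and all 6 had a fitted log2 fold change below 0 (median -0.44, 0 called). The red blood cell markers summed to 2780 to 10280 CPM and 1318 to 9054 CPM. Control replicate 2 stood apart, with the lowest cardiac and the highest smooth muscle and adipocyte sums, and the part of these in the results was not tested beyond the muscle scores used as covariates. Acvr1, which is listed once, averaged 59.0 ± 9.21 CPM among controls against 54.7 ± 4.28 CPM among mutants, and Nfatc1 138 ± 22.9 CPM against 161 ± 24.3 CPM. Both genes overlapped between the groups. Whether reads of the transgene were counted under Acvr1 is not given in the sources used here.

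None of the core genes passed the test. Of the 10 genes, 0 had an adjusted p under 0.05 in the quasi-likelihood test of edgeR, and of all 15354 genes tested 0 had (0%). At an unadjusted p under 0.05 the count was also 0 of 10, where 1.59% of all genes were higher in the mutants and 1.86% lower. The fitted level was lower in the mutants for 8 of the 10 genes and higher for Npr3 and Nppc, with a median log2 fold change of -0.22 against 0.01 over all genes tested. Every mutant lay below every control for 1 of the 10 genes, Npr2, where 4.83% of all genes did so, and every mutant lay above every control for 0 of the 10, where 4.04% of all genes did. In DESeq2, which called 26 genes in all, 0 of the 10 were called.

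**Figure D1:**
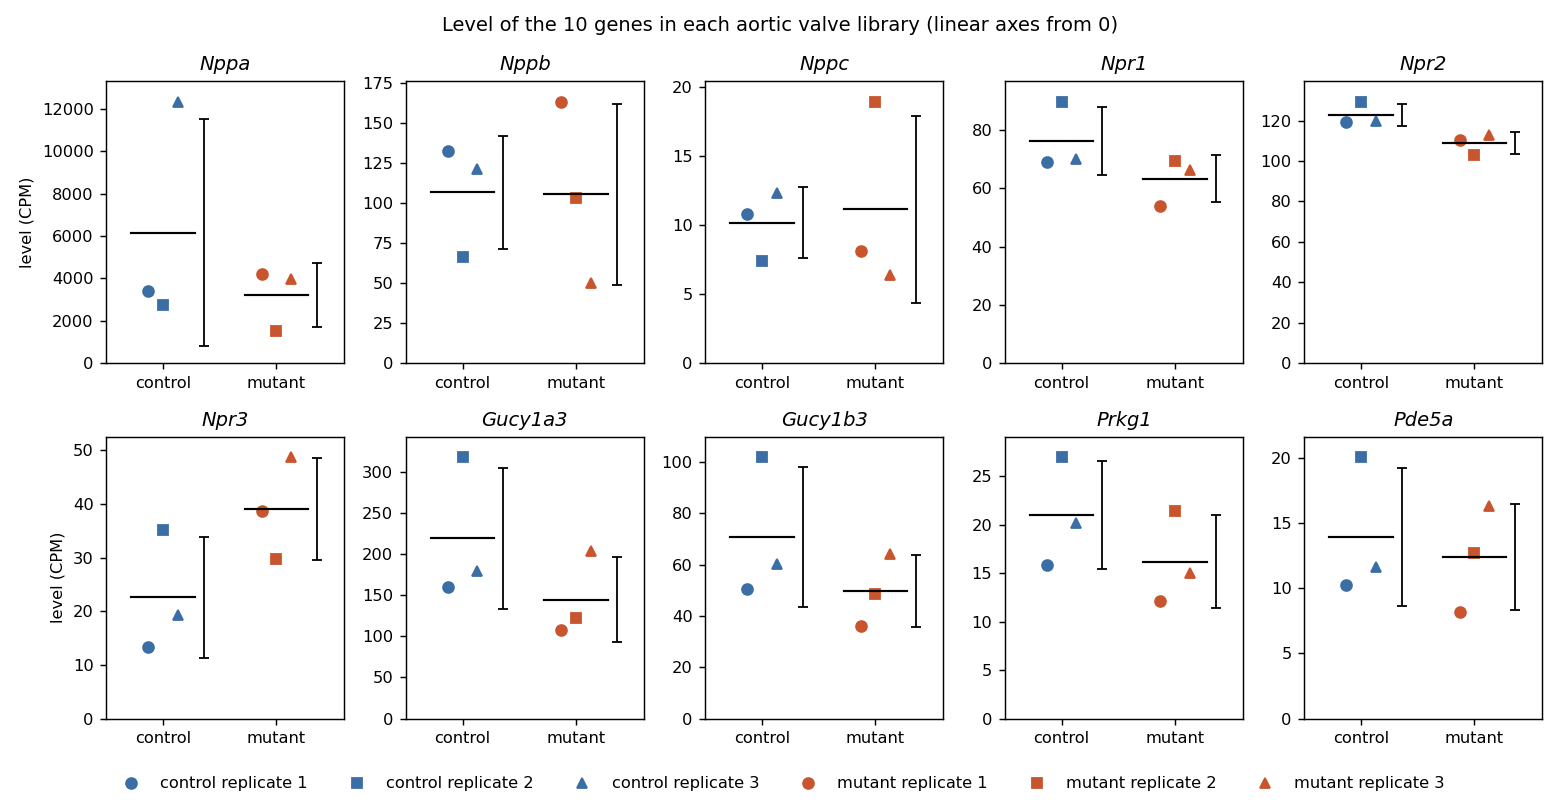
Level of each of the 10 genes in CPM (vertical axes, linear, from 0) in 3 control and 3 mutant libraries. Each point is a library, its shape gives the replicate number, horizontal lines are group means and bars are ± 1 SD. Nppa stands highest in control replicate 3 at 12343 CPM, the mutants lie below the controls only for Npr2, and the points of Npr3 sit higher in the mutants with overlap.

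The genes of the pathway were read at very unlike levels. Divided by the length of all annotated exons joined, which allows genes to be compared, the mean control level ran from 7132 CPM per kb for Nppa to 1.42 CPM per kb for Pde5a. Nppb came next to Nppa at 136 ± 45.4 CPM per kb. The signaling receptors and cyclase subunits formed a middle range, with 31.5 ± 12.3 CPM per kb for Gucy1a3, 26.3 ± 1.21 for Npr2, 18.0 ± 6.93 for Gucy1b3 and 16.0 ± 2.42 for Npr1, in which the libraries of neighbours in the order overlapped. Nppc lay below them at 9.79 ± 2.46 CPM per kb. Npr3, Prkg1 and Pde5a were the lowest, at 2.41 ± 1.2, 1.93 ± 0.515 and 1.42 ± 0.539 CPM per kb, and the libraries of these neighbours overlapped too. The order of the 10 control means was the same with the length of the longest transcript. In the mutants Npr3 averaged 4.16 ± 1.01 CPM per kb.

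Nppa and Nppb lie next to each other on the plus strand of chromosome 4, with 13.5 kb between the end of Nppb (147985788 to 147987205) and the start of Nppa (148000722 to 148002079). Their promoters are shown here because the neighbours carry unlike motifs and, as given further on, ranked the libraries differently. The sequences are from RefSeq on GRCm38.p6 and run from 250 bases before to 50 bases after the start that RefSeq annotates. For Nppa this is the start of the GENCODE gene given above, and for Nppb it is base 147985900, 112 bases inside the GENCODE gene. That of Nppb is chr4:147985650-147985949 and that of Nppa chr4:148000472-148000771, both on the plus strand. Capitals mark TATAAA (the TATA box, in 13.6% of 32851 mouse promoters of this length), AGATAA (a motif of the GATA factors, in 11.2%) and TNAAGTG (an NKX2-5 motif, in 11.5%), searched on both strands.
Nppb: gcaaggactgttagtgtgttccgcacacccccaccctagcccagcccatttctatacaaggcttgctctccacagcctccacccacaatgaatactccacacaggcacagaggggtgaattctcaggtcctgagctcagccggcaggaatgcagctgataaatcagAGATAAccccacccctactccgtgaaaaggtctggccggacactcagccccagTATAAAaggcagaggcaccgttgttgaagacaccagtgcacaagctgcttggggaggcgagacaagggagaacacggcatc
Nppa: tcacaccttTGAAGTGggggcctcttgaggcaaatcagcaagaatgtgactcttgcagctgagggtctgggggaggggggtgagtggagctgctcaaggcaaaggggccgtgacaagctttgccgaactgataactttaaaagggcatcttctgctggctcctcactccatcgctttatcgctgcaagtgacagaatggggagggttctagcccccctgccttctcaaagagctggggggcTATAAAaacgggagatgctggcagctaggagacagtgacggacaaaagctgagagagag
The TATA box lay 31 bases before the RefSeq start in Nppb and 9 bases before it in Nppa. Nppb held an AGATAA match and no TNAAGTG match in this window, and Nppa held a TNAAGTG match and no AGATAA match. Such a match describes the letters only.

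Nppa was among the most abundant messages of the valve libraries, with 0.155% to 1.23% of all fragments. It was read at 3429, 2735 and 12343 CPM among the controls, against 4231, 1501 and 3957 CPM among the mutants. Control replicate 3 was far above the rest, there Nppa was the gene with the most fragments of all, and the remaining controls lay within the range of the mutants. The fold change, mutants against controls, was 0.524 (95% interval 0.172 to 1.6, log2 fold change -0.93, standard error 0.68, adjusted p = 0.999 from edgeR). Without control replicate 3 the log2 fold change was 0.06, so the direction rested on that library. With the mean level of smooth muscle markers as a covariate it was -1.64, with an adjusted p of 0.796 in edgeR. An antisense gene, Gm13054, shares 532 exon bases with Nppa, and whether strand was used in counting is not given in the sources used here.

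Nppa ranked the libraries as the atrial muscle markers did. The summed level of the 7 atrial muscle markers, led by Myl7 (atrial myosin light chain, 2737 CPM on average) and Myl4, was 3774 to 9735 CPM in the controls and 2834 to 9509 CPM in the mutants. Of these markers 6 passed the minimum count, and Bmp10 had 0 counts in every library but mutant replicate 3. Over the 6 libraries the level of Nppa and the marker sum ranked the same (Spearman's rho = 1.00, Pearson's r = 0.82 on the log2 scale, exact permutation p = 0.00278 for each, the smallest that 6 libraries can give, adjusted p = 0.0111 over 8 such relations). Pearson's r was 0.54 without the 2 libraries farthest from the median of the marker sum. With both measures centred on their group means, r was 0.95 (exact permutation within the groups, p = 0.0278, the smallest of 36 orders, adjusted p = 0.0741 over 8). These 8 relations, and the centring, were chosen after the values were seen.

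Relative to that marker sum, all mutants had less Nppa than any control. The ratio of Nppa to the summed atrial markers was 0.733, 0.725 and 1.27 among the controls, against 0.445, 0.530 and 0.451 among the mutants. The mean log2 ratio was lower in the mutants by a fold of 0.541 (two-sided exact permutation p = 0.1, the lowest possible with 3 against 3, adjusted p = 0.267 over the 8 ratios compared). The fold ran from 0.492 to 0.650 when each library was left out in turn. With single markers in place of the sum, an alternative chosen after seeing the data, the fold was 0.530 for Myl7 and 0.649 for Mybphl, the extremes of 6 markers, and the groups did not overlap for 3 of them (Myl7, Myl4 and Stard10). In bulk tissue, fewer cells of a type and less RNA per cell cannot be told apart.

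Nppb had no steady direction. It was read at 132, 66.0 and 121 CPM among the controls, against 163, 103 and 50.04 CPM among the mutants, so that the mutants held both the highest and the lowest value. Mutants against controls, the fold change was 0.989 (95% interval 0.484 to 2.02, log2 fold change -0.02, standard error 0.44, adjusted p = 0.999 from edgeR). The log2 fold change of Nppb was -0.48 to 0.32 as single libraries were left out, and -1.09 with the mean level of smooth muscle markers as a covariate, none with an adjusted p under 0.05. No relation of Nppb to Nppa was detected over the 6 libraries (r = 0.21, rho = 0.37, exact permutation p = 0.736 and 0.497, both also after adjustment over the 8 relations, and r = 0.19 centred on the group means), and the ratio of Nppb to Nppa per kb varied 6.98-fold between libraries. Against the summed cardiac muscle markers, the ratio of Nppb was 0.00315, 0.00493 and 0.00363 in the controls and 0.00341, 0.00409 and 0.00159 in the mutants, a fold of 0.733 with overlapping groups (exact permutation p = 0.5). Over the 6 libraries Nppb and the cardiac marker sum had r = 0.63 and rho = 0.83 (exact permutation p = 0.217 and 0.0583, adjusted p = 0.270 and 0.0933), with r = 0.33 without the 2 farthest libraries. Centred on the group means this r was 0.69 (exact permutation within the groups, p = 0.111, adjusted p = 0.148). For the sum of the 5 ventricular markers, led by Myl3, r was 0.64 and rho 0.83 (exact permutation p = 0.236 and 0.0583, adjusted p = 0.270 and 0.0933), with r = 0.89 without the 2 farthest libraries. Its centred r was 0.70 (exact permutation within the groups, p = 0.0278, the smallest of 36 orders, adjusted p = 0.0741).

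Nppc (chromosome 1, 86666291 to 86670571), the ligand of Npr2, was the least read of the ligands. Its level was 10.8, 7.38 and 12.4 CPM among the controls (373 to 581 counts), against 8.15, 18.9 and 6.40 CPM among the mutants (204 to 749 counts). Mutant replicate 2 was above and mutant replicate 3 below all of the controls. Its fold change was 1.1 (95% interval 0.547 to 2.2, adjusted p = 0.999 from edgeR), and the log2 fold change was -0.48 without mutant replicate 2, so that no direction could be given.

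**Figure D2:**
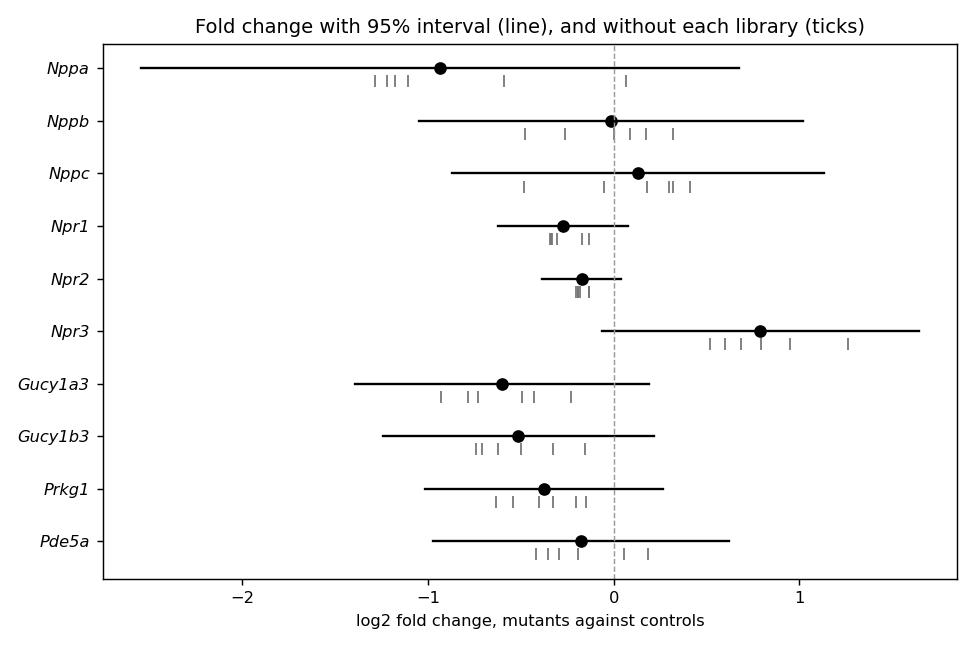
Log2 fold change of the 10 genes, mutants against controls (horizontal axis), with the 95% interval of the edgeR fit as a line and the estimates from the 6 fits that each left out a library as ticks. All 10 intervals include 0, that of Npr2 is the narrowest (-0.39 to 0.04), and the ticks of Npr2, Npr1, Npr3, Gucy1a3, Gucy1b3 and Prkg1 stay on their own side of 0.

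Among the receptors, Npr2 (chromosome 4, 43631935 to 43651244) had the narrowest spread of all the core genes. It was read at 119, 129 and 120 CPM among the controls, against 111, 103 and 113 CPM among the mutants, with a highest value only 1.25 times the lowest. All of the mutants lay below the lowest control, by which it was singled out among the 10 genes. The fold change was 0.887 with a 95% interval of 0.765 to 1.03 (adjusted p = 0.999 from edgeR). The 6 fits that each left out a library gave log2 fold changes of -0.20 to -0.13. An antisense gene, Gm12473, shares 266 exon bases with Npr2.

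Npr1 (chromosome 3, 90450591 to 90465866), the receptor of the atrial and B-type peptides, was read at 69.1, 89.7 and 70.1 CPM in the controls and 54.1, 69.5 and 66.2 CPM in the mutants. Control replicate 2 was the highest, and mutant replicate 2 lay just above control replicate 1. For Npr1 the fold change was 0.829 (95% interval 0.651 to 1.06, adjusted p = 0.999 from edgeR). An antisense gene, Gm16048, shares 559 exon bases with it. With the mean level of smooth muscle markers as a covariate, the log2 fold change of Npr1 went from -0.27 to 0.04. The ratio of Npr1 to Npr2 per kb was 0.566, 0.677 and 0.571 in the controls and 0.478, 0.659 and 0.571 in the mutants, which overlapped (exact permutation p = 0.5).

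Npr3 (chromosome 15, 11839896 to 11907287), the clearance receptor, had the largest fitted fold change above 1 among the 10 genes. It was read at 13.3, 35.2 and 19.4 CPM among the controls (715, 1778 and 891 counts), and at 38.8, 29.8 and 48.7 CPM among the mutants (2009, 1176 and 1551 counts). Only control replicate 2 reached the range of the mutants, above mutant replicate 2. The fold change was 1.73 (95% interval 0.956 to 3.12, log2 fold change 0.79, standard error 0.36, unadjusted p = 0.0652, adjusted p = 0.999 from edgeR). It was positive in all 15 alternative fits, from 0.52 without control replicate 1 to 1.39 with the smooth muscle score as a covariate on the log2 scale, and its log2 fold change was 1.26 without control replicate 2. In none of these fits was the adjusted p under 0.05.

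The proportion of clearance to signaling receptor did not overlap between the groups. The ratio of Npr3 to Npr2 per kb was 0.0557, 0.135 and 0.0804 among the controls, against 0.174, 0.144 and 0.214 among the mutants, with the lowest mutant above the highest control. The fold of the mean log2 ratio was 2.07 (two-sided exact permutation p = 0.1, the lowest possible with 3 against 3, adjusted p = 0.267 over the 8 ratios), and 1.68 to 2.62 when each library was left out in turn. These 2 values, of control replicate 2 and mutant replicate 2, were close. Relative to Npr1, a ratio chosen after seeing the data, Npr3 was also higher in every mutant, with a fold of 2.21 (exact permutation p = 0.1). Its log2 ratio in CPM was -1.35 in control replicate 2 and -1.22 in mutant replicate 2. Relative to Nppc, the level of Npr3 overlapped between the groups, with a fold of 1.84 (exact permutation p = 0.3). A gene that starts on the other strand, Gm5144, shares 321 exon bases with Npr3.

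**Figure D3:**
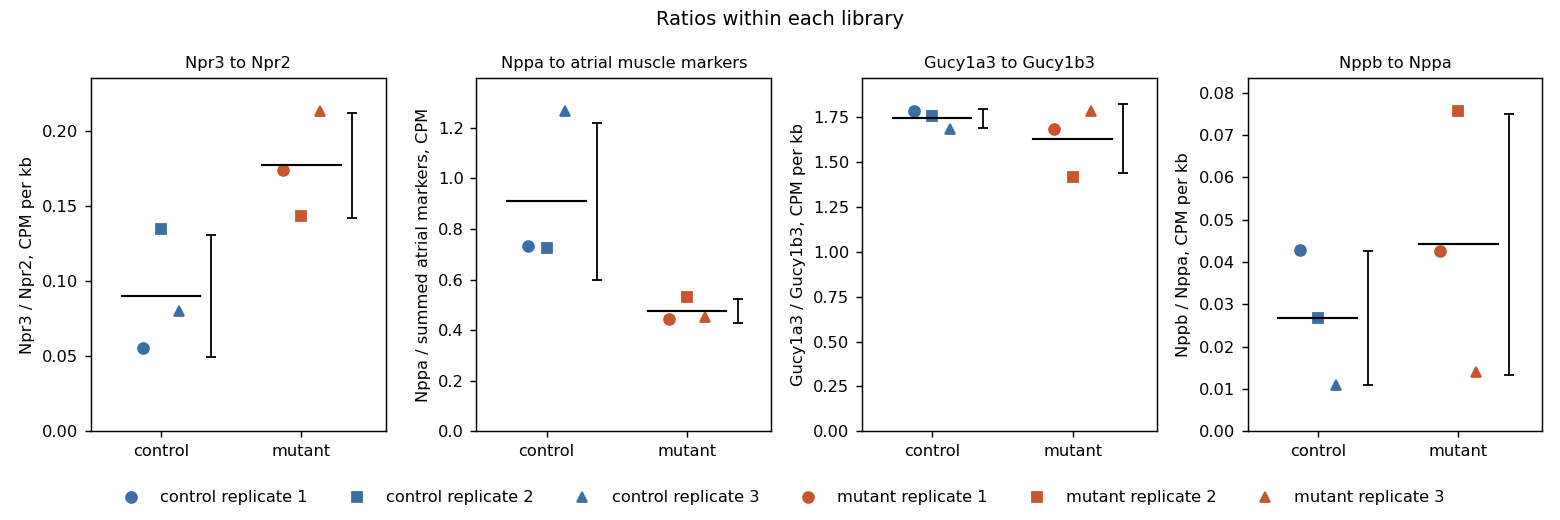
Ratios within each library: Npr3 to Npr2, Gucy1a3 to Gucy1b3 and Nppb to Nppa in CPM per kb, and Nppa to the summed atrial muscle markers in CPM (vertical axes from 0). Points are libraries, lines are group means and bars ± 1 SD. The mutants lie above the controls for Npr3 to Npr2 and below them for Nppa to atrial markers, while the ratio of the cyclase subunits stays between 1.42 and 1.79.

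The genes of the soluble guanylate cyclase, Gucy1b3 (chromosome 3, 82032006 to 82074689) and Gucy1a3 (82092427 to 82145789), lie 17.7 kb apart on the minus strand. Their products form the dimer that nitric oxide activates. Their promoters are shown because the levels of the pair followed each other over the libraries. That of Gucy1b3 is chr3:82074662-82074961 and that of Gucy1a3, at the outermost of its 2 listed starts, is chr3:82145601-82145900, from RefSeq on GRCm38.p6 and written on the minus strand. The RefSeq start lies 22 bases before the start of the GENCODE gene for Gucy1b3 and 139 bases inside the GENCODE gene for Gucy1a3. Capitals mark the GC box GGGCGG, which 35.7% of all promoters of this length hold on either strand and which was the only motif searched that either promoter held.
Gucy1b3: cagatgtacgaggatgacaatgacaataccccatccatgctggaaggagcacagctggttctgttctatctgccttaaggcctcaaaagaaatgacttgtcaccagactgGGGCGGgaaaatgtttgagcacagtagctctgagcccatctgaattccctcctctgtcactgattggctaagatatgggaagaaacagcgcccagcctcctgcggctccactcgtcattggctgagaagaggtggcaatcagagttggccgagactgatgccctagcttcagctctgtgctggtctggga
Gucy1a3: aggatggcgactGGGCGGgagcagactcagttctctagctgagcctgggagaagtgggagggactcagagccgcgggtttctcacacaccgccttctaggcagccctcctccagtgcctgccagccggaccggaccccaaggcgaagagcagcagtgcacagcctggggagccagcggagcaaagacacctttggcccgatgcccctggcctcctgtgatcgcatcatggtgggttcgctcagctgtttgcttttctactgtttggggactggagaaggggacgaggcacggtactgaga
The motif GGCGCC is known to be bound by SMAD proteins of the BMP pathway and was found in 11.9% of promoters. It was present in those of Nppc and Npr2 and in none of the others of the 10 genes. All 5 motifs were chosen after the values were seen.

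Gucy1a3 was read at 160, 317 and 180 CPM among the controls, against 108, 122 and 203 CPM among the mutants. For Gucy1b3 the levels were 50.5, 102 and 60.2 CPM in the controls and 36.03, 48.6 and 64.1 CPM in the mutants. In both genes control replicate 2 was the highest library, mutant replicate 3 lay above the remaining controls, and the other mutants lay below every control. The fold change was 0.659 for Gucy1a3 (95% interval 0.381 to 1.14) and 0.700 for Gucy1b3 (95% interval 0.423 to 1.16), each with an adjusted p of 0.999 in edgeR. Without control replicate 2 the log2 fold changes were -0.23 and -0.16.

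The pair ranked the libraries alike. Over the 6 libraries Pearson's r was 0.98 and Spearman's rho 1.00 (exact permutation p = 0.00278 for each, adjusted p = 0.0111 over 8 relations), and r was 0.91 without the 2 libraries farthest from the median of Gucy1b3. Centred on the group means, r was 0.97 (exact permutation within the groups, p = 0.0278, adjusted p = 0.0741). The ratio of Gucy1a3 to Gucy1b3 per kb was 1.79, 1.76 and 1.69 in the controls and 1.69, 1.42 and 1.79 in the mutants (fold 0.931, exact permutation p = 0.7). It varied 1.26-fold over all libraries, whereas Gucy1a3 itself varied 2.94-fold.

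Prkg1 (chromosome 19, 30564489 to 31765033), which encodes the cGMP-dependent kinase that relaxes smooth muscle, was read at 15.8, 26.9 and 20.2 CPM among the controls, against 12.1, 21.5 and 15.01 CPM among the mutants. The fold change was 0.771 (95% interval 0.495 to 1.2, adjusted p = 0.999 from edgeR). The groups overlapped, since mutant replicate 2 exceeded all of the controls except replicate 2. Pde5a (chromosome 3, 122728947 to 122859374) was read at 10.2, 20.0 and 11.6 CPM in the controls and 8.19, 12.7 and 16.3 CPM in the mutants, with a fold change of 0.886 (95% interval 0.510 to 1.54, adjusted p = 0.999 from edgeR). A gene on the other strand, 4930447N08Rik, shares 55 exon bases with Pde5a. The log2 fold change of Pde5a was 0.18 without control replicate 2 and 0.053 without mutant replicate 1, and 5 of the 15 alternative fits turned its direction.

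The cyclase subunits, Prkg1 and Pde5a were each highest in control replicate 2 and lowest in mutant replicate 1, the libraries with the highest and lowest summed smooth muscle markers. For Gucy1a3 against this sum r was 0.91 (rho = 0.83, exact permutation p = 0.0194 and 0.0583, adjusted p = 0.0519 and 0.0933), and 0.44 without the 2 libraries farthest from the median. For Prkg1 and Pde5a, r was 0.82 and 0.84 (exact permutation p = 0.0583 and 0.05, adjusted p = 0.0933 for both) and rho 0.49 and 0.60 (exact permutation p = 0.356 and 0.242, adjusted p = 0.406 and 0.322). Here r was -0.72 and -0.45 without the 2 farthest libraries, on which these relations rested. Centred on the group means, r was 0.86 for Gucy1a3, 0.75 for Prkg1 and 0.96 for Pde5a (exact permutation within the groups, p = 0.0556, 0.222 and 0.0556, adjusted p = 0.0889, 0.254 and 0.0889). Of the 10 smooth muscle markers 9 were lower in the mutants, with a median log2 fold change of -0.82, and for 4 all mutants lay below all controls (4.83% of all genes did). In edgeR 0 had an adjusted p under 0.05, and 2 were lower at an unadjusted p under 0.05 (1.86% of all genes). The marker that was not lower was Des (log2 fold change 0.12), which was lowest in control replicate 2, as the cardiac marker sum was. It made up 1590 of the 4017 CPM of the smooth muscle sum in mutant replicate 1, and 510 of the 14356 CPM in control replicate 2. The sum without Des was not tested. With the smooth muscle score as a covariate the log2 fold changes were 0.13 for Gucy1a3, 0.21 for Gucy1b3, 0.11 for Prkg1 and 0.61 for Pde5a. The part of smooth muscle in these results was not tested otherwise.

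Relative to the smooth muscle marker sum, all mutants had more Pde5a than any control. The ratio was 0.00128, 0.00139 and 0.00162 among the controls, against 0.00204, 0.00191 and 0.00225 among the mutants, a fold of 1.45 without overlap (two-sided exact permutation p = 0.1, the lowest possible with 3 against 3, adjusted p = 0.267 over the 8 ratios). For Prkg1 the same ratio was 0.00198, 0.00188 and 0.00282 in the controls and 0.00301, 0.00323 and 0.00207 in the mutants, with a fold of 1.24 and overlapping groups (exact permutation p = 0.2). The level of Pde5a itself overlapped between the groups, with a fold change of 0.886, while 9 of the 10 markers in the sum were lower in the mutants. Single markers were not used in place of this sum. Fewer cells of a type and less RNA per cell cannot be told apart here either.

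**Figure D4:**
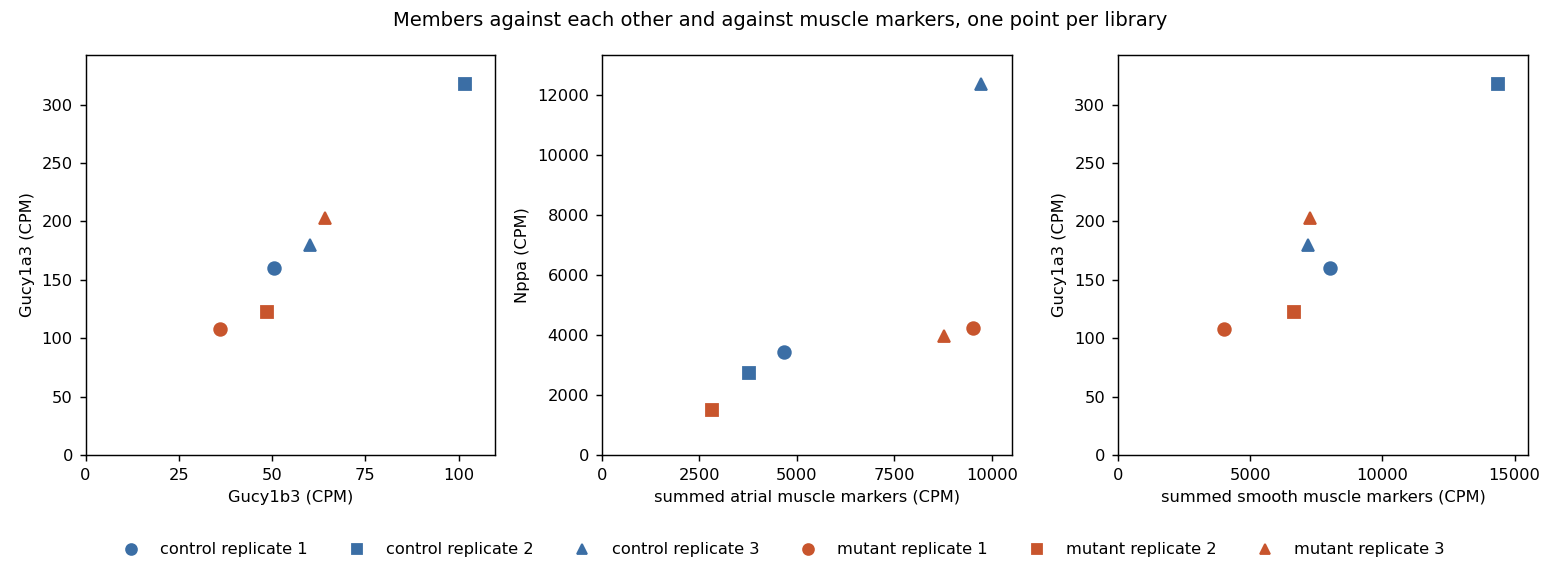
Gucy1a3 against Gucy1b3, Nppa against the summed atrial muscle markers, and Gucy1a3 against the summed smooth muscle markers, all in CPM on linear axes from 0, with 1 point per library. The cyclase subunits fall along a line, and at about the same marker sum Nppa is 12343 CPM in control replicate 3 and 4231 CPM in mutant replicate 1.

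The rest of the pathway was described with 57 further genes in 6 lists, of which 43 passed the minimum count. Of these 22 were higher and 21 lower in the mutants, with a median log2 fold change of 0.02 against 0.01 over all genes tested. In edgeR 0 had an adjusted p under 0.05, and at an unadjusted p under 0.05 there were 0 higher and 4 lower, where 1.59% and 1.86% of all genes were. All mutants lay below all controls for 4 of the 43 (Gucy2e, Mrvi1, Pde2a and Pde3b), or 9.30%, where 4.83% of all genes did, and above them for 0, where 4.04% did.

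Mrvi1, which encodes the substrate through which the cGMP kinase restrains calcium release, was read at 74.3, 186 and 87.6 CPM among the controls, against 47.0, 62.8 and 55.4 CPM among the mutants. The log2 difference came to -1.07, with a standard error of 0.34. It too was highest in control replicate 2. Pde2a, a phosphodiesterase that cGMP stimulates, was read at 45.0, 72.2 and 72.6 CPM in the controls and 44.3, 40.4 and 41.7 CPM in the mutants, a log2 difference of -0.59 with a standard error of 0.19. Control replicate 1 lay next to the mutants. Pde3b, which cGMP inhibits, went from 34.5 ± 2.70 CPM to 30.2 ± 1.06 CPM, a log2 difference of -0.19 with a standard error of 0.10. Pde3a, named after its values were seen as the remaining gene with an unadjusted p under 0.05, overlapped between groups, with a log2 difference of -0.56 and a standard error of 0.21. For each of these the adjusted p in edgeR was 0.999. Gucy2e, a sensory guanylate cyclase, had 19, 10 and 51 counts in the controls and 0, 0 and 3 in the mutants, too few for a fold change to be given.

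The sources of nitric oxide and the handling of the peptides are described with genes named for their roles after their values were seen. Nos3, the endothelial nitric oxide synthase, averaged 376 ± 61.4 CPM among controls against 406 ± 105 CPM among mutants, and all 6 genes of the nitric oxide list had a fitted log2 fold change above 0, with a median of 0.06 and 0 that passed. Corin, the protease that activates the atrial peptide, was read at 140 ± 45.0 and 187 ± 64.5 CPM, and Furin, which cleaves the precursors of the B-type and C-type peptides, at 178 ± 11.4 and 197 ± 17.5 CPM. Mme (neprilysin), which degrades natriuretic peptides, was read at 15.02 ± 4.005 and 11.5 ± 2.18 CPM, and Ostn, another ligand of Npr3, at 1.57 ± 1.39 and 1.59 ± 0.776 CPM. The other cGMP kinase gene, Prkg2, was read at 0.880 ± 0.526 and 1.12 ± 0.655 CPM. In each of these the groups overlapped.

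**Figure D5:**
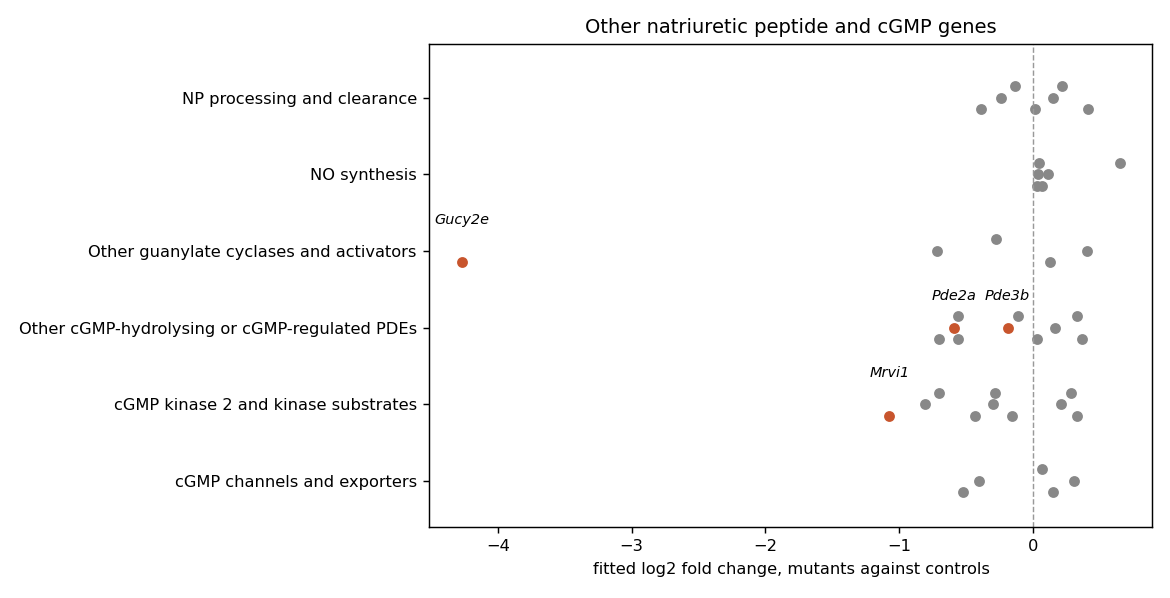
Fitted log2 fold change, mutants against controls (horizontal axis), of the 43 further natriuretic peptide and cGMP genes tested, by list. Red points are genes whose groups do not overlap (Gucy2e, Mrvi1, Pde2a and Pde3b, all lower in the mutants), and the fitted value of Gucy2e rests on 0 to 51 counts per library.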

How the data were processed

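Aortic valve RNA of 3 control and 3 mutant mouse libraries was analysed. The authors aligned reads to mm10 with TopHat2 2.0.13 and Bowtie2 2.2.1 (per the processing notes) and ran Cufflinks and Cuffdiff 2.1.1. The deposited values are estimated counts, fragments per gene and library without scaling. Between 1.66% and 1.87% of values per library were not exactly whole (no tolerance) and were rounded.

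The 15354 genes that reached 10 counts in 3 or more libraries were tested with the quasi-likelihood test of edgeR 4.0.16 in R 4.3.3, with TMM normalization, no covariates and Benjamini-Hochberg adjustment over all genes tested (threshold 0.05). The steps were checked on simulated data. Intervals are 95% intervals of the log2 fold change. Ratios within a library were compared with exact permutation tests, and relations over the 6 libraries with exact permutation of the pairings, each adjusted (Benjamini-Hochberg) over its 8 comparisons. Relations were also computed centred on the group means. Exon lengths and positions come from GENCODE M21 on GRCm38 (the build of mm10) and matched all 10 genes by symbol or current symbol.

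The members and lists were chosen with earlier results of these data known. By rule the text names the 10 genes, further pathway genes that passed the test or, failing that, up to 5 a direction with groups that do not overlap, the 2 most abundant markers of a list, and for each member the 3 genes most like it (not all are reported). Depth was 32218345 to 55728852 fragments a library. Same-numbered libraries deviated together with correlations of 0.29, 0.08 and 0.03, so the numbers were not taken as pairs. Alternatives were DESeq2 1.42.0, limma-voom (limma 3.58.1), other normalization and filters, a replicate block, muscle scores as covariates and leaving out each library.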

Additional observations from a re-analysis of the deposited data

How the results depend on the processing

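Of the 10 genes, 0 had an adjusted p under 0.05 in any of the 15 alternative fits, and 0 of the further pathway genes did. In the edgeR fit of the report, the count at an unadjusted p under 0.05 was 0 of 10, and 4 of the further pathway genes. That count was not taken in the alternative fits. Npr2 and Npr3 kept their direction in all 15. The direction of Nppa turned in 1 fit, without control replicate 3 (log2 fold change from -1.29 to 0.065 as single libraries were left out). Nppb ran from -0.48 to 0.32 over those fits, Nppc from -0.48 to 0.41 and Pde5a from -0.42 to 0.18. With sample quality weights in limma-voom Nppc was at -0.16 and Pde5a at 0.037. With the replicate block Nppc was at -0.013. With the smooth muscle score as a covariate Nppc was at -0.011, Npr1 at 0.037, Gucy1a3 at 0.13, Gucy1b3 at 0.21, Prkg1 at 0.11 and Pde5a at 0.61, while Nppa was at -1.64 and Nppb at -1.09, and with the cardiac muscle score Pde5a was at 0.091. The cause was not tested. The mean log2 ratio of Npr1 to Npr2, mutants minus controls, ran from -0.21 to 0.025 when each library was left out, and the other 7 ratios kept their direction under all alternatives run. The numbers of the replicates were not taken as pairs. Same-numbered libraries had correlations of 0.29, 0.08 and 0.03, against -0.27 to 0.20 for unlike numbers. With 3 libraries a group these values cannot decide whether the libraries were paired. With the replicate block 0 genes of all tested had an adjusted p under 0.05 (814 had an unadjusted p under 0.05, against 529 without it). DESeq2 called 26 genes of all tested, against 0 in edgeR. With the longest transcript as length, Gucy1a3 was at 46.5, Npr2 at 33.5, Npr1 at 18.8 and Prkg1 at 3.01 CPM per kb in the controls. Permutation tests between the groups of 3 could not give a p under 0.1. The lowest count of any of the 10 genes was 204, and the effect of depth on the calls was not tested.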

Other observations

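The genes most like each core gene over the 6 libraries were read off as a description, by Pearson's r of log2 CPM among 13693 genes with a mean of at least 1 CPM. Between 52 genes (Npr3) and 503 genes (Npr1) reached an r over 0.9, so that high values were common with 6 libraries. For Gucy1a3 the closest were Bcl2, Fgfr1 and Ctgf (r = 0.99 to 1.00), and its partner Gucy1b3 came 14th. For Gucy1b3, its partner Gucy1a3 came 39th. An r over 0.9 was reached by 291 genes with Gucy1a3 and by 455 genes with Gucy1b3. For Npr2 they were Lrrk2, Dact1 and Sphk1 (r = 0.99 to 1.00). For Nppa they were Zfp954, Serf2 and Psd3, and Nppb came 4366th. Nppc and its receptor Npr2 had an r of -0.51.

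Cardiac muscle genes that are known to rise with Nppb under load were also read. Of Myh7, Acta1, Ankrd1, Xirp2 and Csrp3, 2 were higher and 3 lower in the mutants, with 0 that passed, and their summed level was 1094 to 5201 CPM in the controls and 1880 to 4220 CPM in the mutants.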
